A study of Mus musculus with 2 samples.

Results

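*Otx2*, *Crx* and *Prdm1* encode nuclear factors that act when a dividing cell of the embryonic retina becomes a photoreceptor. The 3 genes were taken by symbol from the gene index of both count matrices, where each symbol belonged to 1 identifier, and they are 3 of 28692 genes listed. Cells came from retinas of *LHX4::GFP* mice at E14.5 (Tg(Lhx4::EGFP)KN199Gsat/Mmucd), in which a bacterial artificial chromosome carries EGFP under *Lhx4* regulatory sequence. Embryos with visible GFP, from 2 litters, were pooled into one suspension and sorted, so that GFP+ and GFP- cells shared genotype, age and animals. Each gate gave 1 droplet library of unique molecular identifier (UMI) counts, made with a kit that tags transcripts at the 3′ end. As there was 1 library per gate, of unlike depth, gate and library cannot be told apart, no test between gates was possible, and every interval given is a 95% interval that covers counting error only.

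OTX2 is a homeodomain factor that switches on in cells about to leave the cell cycle and is required for photoreceptor formation, and it also acts in bipolar, horizontal and pigment epithelial cells. CRX, a homeodomain factor of the same family, is produced under OTX2 control and drives genes of the phototransduction machinery. PRDM1, also known as BLIMP1, is a zinc finger repressor that is likewise switched on by OTX2 and holds newborn cells in the photoreceptor fate by keeping genes of bipolar cells silent.

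*Otx2* (ENSMUSG00000021848) is a protein-coding gene on chromosome 14 of GRCm38, on the minus strand from 48657677 to 48673819. It overlaps the long noncoding gene *Otx2os1* on the opposite strand, from 48668708 to 48870683. *Crx* (ENSMUSG00000041578) is on the minus strand of chromosome 7, from 15865947 to 15879968, and *Prdm1* (ENSMUSG00000038151) is on the minus strand of chromosome 10, from 44437177 to 44528501. All 3 had promoter windows in RefSeq (GRCm38.p6) that run from 250 bases before to 50 bases after a transcription start: 4 for *Otx2*, 1 for *Crx* and 1 for *Prdm1*. The windows were searched on both strands for TAATCC, the core that OTX2 and CRX are known to bind, and for CAGATG, an E-box of the kind that proneural factors bind, the pair having no overlap of their own. The 3 windows shown are those of *Crx* and *Prdm1* and the *Otx2* window that held the first motif, with the matches (as GGATTA, the reverse strand of TAATCC) in capitals. They set side by side the promoters of genes that did not all rise in the same class of cell. The *Crx* window is chr7:15879906-15880205, the *Otx2* window chr14:48665060-48665359 and the *Prdm1* window chr10:44458699-44458998, each read 5′ to 3′ along the minus strand.
Crx: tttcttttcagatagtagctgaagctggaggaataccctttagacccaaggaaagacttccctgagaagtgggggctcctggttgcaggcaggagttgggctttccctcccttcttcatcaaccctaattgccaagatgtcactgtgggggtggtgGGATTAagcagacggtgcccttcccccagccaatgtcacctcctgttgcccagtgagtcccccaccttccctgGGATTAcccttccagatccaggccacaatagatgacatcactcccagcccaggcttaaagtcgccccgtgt
Otx2: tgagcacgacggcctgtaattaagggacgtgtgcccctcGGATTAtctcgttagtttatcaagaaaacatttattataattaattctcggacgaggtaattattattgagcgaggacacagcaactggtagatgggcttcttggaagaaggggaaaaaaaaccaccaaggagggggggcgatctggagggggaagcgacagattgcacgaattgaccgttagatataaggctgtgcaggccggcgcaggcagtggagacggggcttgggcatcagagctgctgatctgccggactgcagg
Prdm1: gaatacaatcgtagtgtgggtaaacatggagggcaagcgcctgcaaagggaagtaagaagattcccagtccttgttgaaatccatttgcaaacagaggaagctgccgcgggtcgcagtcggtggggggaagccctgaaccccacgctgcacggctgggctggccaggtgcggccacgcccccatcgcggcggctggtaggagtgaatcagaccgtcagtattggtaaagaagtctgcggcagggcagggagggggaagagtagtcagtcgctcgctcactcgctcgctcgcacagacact
The *Crx* window held 2 matches to TAATCC, from -94 to -89 and from -21 to -16 relative to the start. Of the 4 *Otx2* windows, the one shown held 1 match, from -211 to -206, and the other 3 held none. No match was found in the *Prdm1* window. Over all 32841 windows the motif was found in 7.06%, and over 27018 genes in any window of 8.14%. CAGATG was found in 1 of the *Otx2* windows, from -59 to -54, and in no *Crx* or *Prdm1* window, against 17.2% of all windows. A match describes letters in a window and is not a site of binding.

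The GFP+ library held 16010591 UMIs in 3728 barcodes and the GFP- library 46778924 UMIs in 4445 barcodes, 20 barcodes being in both. Barcodes were retained from 250 up to 3500 genes where mitochondrial UMIs made up less than a fraction of 0.25, which left 3689 GFP+ cells (median 3894 UMIs) and 3389 GFP- cells (median 8848 UMIs). The upper limit took out 1.05% of the GFP+ and 23.7% of the GFP- barcodes. Levels are UMIs summed over cells per 1000000 UMIs (CPM). To compare shares of cells with a UMI, each cell was thinned to 3200 UMIs, which left out 579 GFP+ and 28 GFP- cells. *Lhx4* itself was at 139 CPM (133 to 145) in the GFP+ and 1.66 CPM (1.23 to 2.19) in the GFP- library, so the gate followed the gene whose regulatory sequence drives GFP.

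All 3 genes were far higher in the GFP+ library. Summed *Otx2* was 1486 CPM (1467 to 1505) for the GFP+ gate against 97.2 CPM (93.7 to 101) for the GFP- gate, a ratio of 15.3 (14.7 to 15.9). *Crx* was at 824 CPM (810 to 838) and 20.6 CPM (19.0 to 22.3), a ratio of 40.0 (36.9 to 43.4). *Prdm1* was at 354 CPM (344 to 363) and 9.34 CPM (8.28 to 10.5), a ratio of 37.9 (33.6 to 42.9). The interval of the *Otx2* ratio lay wholly below those of *Crx* and *Prdm1*, which overlapped each other. A gene that reached 10 CPM in 1 of the groups compared was counted, so that a gene near 0 in the other group had to differ. Of 9271 genes counted in this way, 20.9% were at least 2-fold higher in GFP+ and 10.3% at least 2-fold lower with the median gene 0.35 higher on the log2 scale. Centring on that median turned 1939 genes higher and 957 lower into 1217 higher and 1400 lower. Before thinning, a UMI was found in 98.3% of GFP+ cells for *Otx2*, 93.0% for *Crx* and 71.7% for *Prdm1*, and in 18.4%, 5.46% and 5.64% of GFP- cells. After thinning, these shares were 97.2%, 90.6% and 63.9% in GFP+ cells and 12.3%, 4.31% and 3.39% in GFP- cells. With no upper limit on genes the ratios were 19.9, 58.9 and 51.3, and per cell rather than per UMI sequenced they were 7.24, 18.9 and 17.9. Leaving out the limit adds GFP- cells with little of the 3 genes, and counting per cell drops the scaling by the deeper GFP- library.

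*Otx2os1* was also higher in GFP+, at 22.9 CPM against 0.133 CPM in the GFP- library. Over the classes described below it did not keep step with *Otx2*. It was at 0.384 CPM in neurogenic progenitors (2 UMIs), 0.829 CPM in precursors (1 UMI) and 2.70 CPM in GFP- cones (1 UMI). In GFP+ cones it was at 23.8 CPM. The strand setting of the counting was not given in the sources used here, so how far reads of the 2 genes were told apart was not tested. Of the other relatives of the 3 genes, 13 in the list with *Otx2os1*, 7 reached 10 CPM. Of these, 2, *Otx2os1* and *Prdm8*, were over 2-fold higher in GFP+, 2 were over 2-fold lower and 3 were neither, and a share of 2 in 7 is near the 20.9% of all genes that were higher. Among the lower was *Prdm13* (20.7 CPM in GFP- against 1.61 CPM), a regulator of amacrine cells that is also in the AC/HC list. *Otx1*, the nearest relative of *Otx2*, was at or under 6.27 CPM in every class described below.

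To follow the genes along differentiation, cells were put into classes by marker UMIs, none of which belonged to *Otx2*, *Crx* or *Prdm1*. A list was counted as on at 3 or more UMIs. Cells with the cone list on (*Gngt2*, *Gnb3*, *Gnat2*, *Pdc*, *Thrb*, *Rxrg*) and the list of 11 cell cycle genes off formed the cone class. With no cone, RGC or AC/HC list on, cells with the neurogenic list on (*Atoh7*, *Neurog2*, *Olig2*, *Dll1*, *Dll3*, *Dll4*, *Mfng*) formed the neurogenic progenitor class when the cycle list was also on and the precursor class when it was off, and cells with the neurogenic list off and progenitor genes on (such as *Hes1*, *Fgf15* and *Ccnd1*) formed the progenitor class. Retinal ganglion cell (RGC) and amacrine or horizontal cell (AC/HC) classes came, like the cone class, from 1 list alone. The RGC list was *Pou4f2*, *Pou4f1*, *Isl1*, *Rbpms*, *Sncg* and *Nefm*, and the AC/HC list *Tfap2a*, *Tfap2b*, *Ptf1a*, *Prdm13* and *Lhx1*. These classes are ranges of marker counts and not cell types, and 373 GFP- cells (11.01%) stood at 2 or 3 UMIs of the neurogenic list and 379 (11.2%) at 2 or 3 UMIs of the cycle list. The cone class held 3563 GFP+ cells, 96.6% of those kept, and 69 GFP- cells. The other classes were taken from the GFP- library, where there were 1645 progenitors, 587 neurogenic progenitors, 170 precursors, 271 AC/HC and 407 RGC cells. In the GFP+ library none of those 5 classes held more than 21 cells. The remaining 72 GFP+ and 240 GFP- cells were unassigned.

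The 3 genes did not all rise at the same point along this series. *Otx2* was at 6.55 CPM (5.33 to 7.97) in progenitors, 290 CPM (276 to 305) in neurogenic progenitors, 503 CPM (464 to 545) in precursors, 1312 CPM (1198 to 1434) in GFP- cones and 1528 CPM (1508 to 1548) in GFP+ cones. *Crx* was at 1.97 CPM (1.33 to 2.81) in progenitors and 2.88 CPM (1.61 to 4.76) in neurogenic progenitors, and at 185 CPM (161 to 211), 770 CPM (683 to 864) and 847 CPM (832 to 862) in precursors, GFP- cones and GFP+ cones. *Prdm1* was at 1.38 CPM (0.852 to 2.103), 13.8 CPM (10.8 to 17.4), 59.7 CPM (46.7 to 75.1), 240 CPM (193 to 296) and 362 CPM (352 to 372) over the same 5 groups. *Otx2* was thus clearly above progenitors while cells still carried cycle transcripts, and so was *Prdm1* on 72 UMIs, whereas the intervals of *Crx* overlapped. Before the cone class, the series describes cells outside the GFP gate. The 16 GFP+ precursors were higher, with *Otx2* at 877 CPM (712 to 1069), *Crx* at 761 CPM (608 to 941) and *Prdm1* at 134 CPM (75.2 to 221). The 21 GFP+ progenitors were at 240 CPM, 158 CPM and 56.8 CPM.

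**Figure D1:**
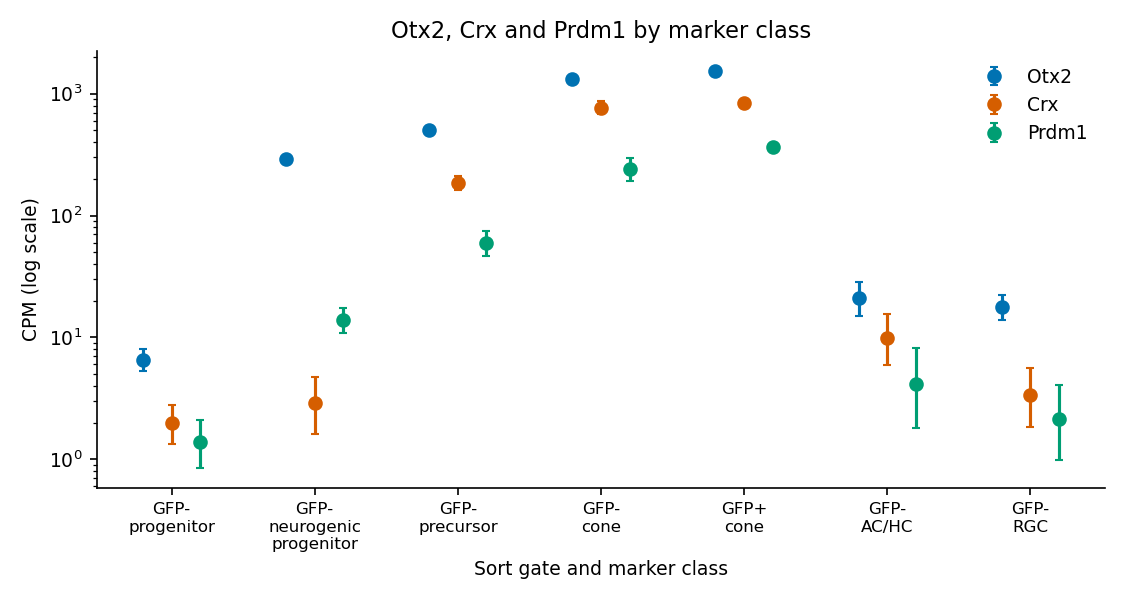
CPM (log scale) of Otx2, Crx and Prdm1 in each marker class and gate; points are summed UMIs scaled to CPM and bars 95% Poisson intervals, from 1 library per gate. In neurogenic progenitors Otx2 stood at 290 CPM while Crx stood at 2.88 CPM, and of the classes drawn all 3 genes were highest in the GFP+ cones, unassigned cells being left out.

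The largest step for *Otx2* was into the neurogenic progenitor class, where it was 44.3-fold (36.2 to 54.8) above progenitors. *Prdm1* was 10.1-fold (6.11 to 17.2) higher there. *Crx* had 15 UMIs among 5202990 in neurogenic progenitors and was under the 10 CPM needed to enter this comparison, in which 2.94% of 7991 genes were at least 2-fold higher. The ratio for *Prdm1* was between 8.92 and 20.9 under the other settings for classes, and that for *Otx2* between 38.0 and 52.4. *Crx* was at 8.93 CPM, 7.53-fold above progenitors, when a list was on at 2 UMIs, and 3.27-fold above them at 5 UMIs, so its level in this class depended on where the marker counts were divided.

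The largest step for *Crx* was into the precursor class, where it was 64.1-fold (38.0 to 116) above neurogenic progenitors. *Prdm1* was 4.31-fold (3.07 to 6.06) higher and *Otx2* 1.73-fold (1.57 to 1.91), which did not reach 2-fold, in a comparison where 7.89% of 8221 genes did. When classes were set on thinned cells, *Otx2* was instead lower in precursors, at 0.706-fold (0.640 to 0.777), the precursor class then holding 240 and the neurogenic progenitor class 335 cells. *Crx* and *Prdm1* kept their direction there, at 19.1-fold and 1.67-fold. The direction of the *Otx2* difference between these classes therefore depended on how the classes were set, and which of the lists mattered was not tested. The precursors also held some transcripts of markers of other lineages. The 6 RGC markers summed to 76.2 CPM, against 59.0 CPM in neurogenic progenitors, 52.3 CPM in progenitors and 3872 CPM in RGC cells. The 5 AC/HC markers summed to 24.0 CPM, against 5.77 CPM in neurogenic progenitors and 1674 CPM in AC/HC cells. Over 15 markers of blood, vessel, connective tissue, pigment epithelium and lens the sum was 73.8 CPM, against 4.805 CPM in neurogenic progenitors. Of the 15, Col3a1, Rpe65 and Crygs were at 0 in both libraries, and the sum over the 15 ran from 4.805 CPM to 301 CPM, in AC/HC cells, over the GFP- classes. In the GFP- library *Cldn5* had the most of these UMIs, 785, and *C1qa* the next most, 109. The sum thus need not stand for each of these tissues, and it was not divided by gene within classes. The part of these transcripts in the ratios was not tested.

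From precursors to GFP- cones, *Otx2* was 2.61-fold (2.31 to 2.94), *Crx* 4.16-fold (3.48 to 4.98) and *Prdm1* 4.03-fold (2.92 to 5.57) higher, while 15.5% of 8745 genes were at least 2-fold higher. With classes set on thinned cells these ratios were 4.20, 11.9 and 7.76. Between GFP- and GFP+ cones the genes were closer, at 1.16-fold (1.06 to 1.28) for *Otx2*, 1.10-fold (0.978 to 1.24) for *Crx* and 1.51-fold (1.22 to 1.88) for *Prdm1*, all higher in GFP+. Of the 6 genes of the cone list, *Gngt2*, *Gnb3* and *Pdc* differed more between the same cells, at 3.17-fold, 2.50-fold and 2.28-fold. *Gnat2*, *Thrb* and *Rxrg* were nearer to *Prdm1*, at 1.76-fold, 1.61-fold and 1.39-fold. All 6 belong to the list that set the class.

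RGC and AC/HC cells gave a level for cells outside this series. The AC/HC level is not a clean floor, as OTX2 also acts in horizontal cells. That class also held 301 CPM over the 15 markers of other tissues, of which *Cldn5* had the most UMIs in the GFP- library. *Otx2* was at 17.7 CPM (13.9 to 22.2) in RGC and 20.9 CPM (14.9 to 28.5) in AC/HC cells, *Crx* at 3.34 CPM and 9.93 CPM, and *Prdm1* at 2.15 CPM and 4.18 CPM. *Crx* in neurogenic progenitors did not stand above these levels. *Prdm1* there did, at 13.8 CPM (10.8 to 17.4) against intervals of 0.982 to 4.08 CPM in RGC and 1.81 to 8.24 CPM in AC/HC cells. In thinned cells a UMI was found in 5.68% of RGC cells (median 10633 UMIs before thinning) for *Otx2*, 1.23% (0.402 to 2.86%) for *Crx* and 1.23% (0.402 to 2.86%) for *Prdm1*. Shares in neurogenic progenitors (median 8780 UMIs) were 33.2% (29.3 to 37.2%) for *Otx2*, 1.03% (0.379 to 2.23%) for *Crx* and 4.12% (2.66 to 6.07%) for *Prdm1*, so that the intervals of *Crx*, and narrowly those of *Prdm1*, overlapped those of the RGC cells. In progenitors the shares were 2.02%, 0.612% and 0.428%.

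In neurogenic progenitors *Prdm1* was found beside *Otx2* more often than *Crx* was. Of 582 thinned neurogenic progenitors, 168 held *Otx2* alone, 21 *Otx2* with *Prdm1*, 3 *Otx2* with *Crx* and 1 all 3, and 385 held none. Among the 193 with *Otx2*, 11.4% (7.28 to 16.7%) also held *Prdm1*, against 0.514% (0.0623 to 1.84%) of the 389 without. Only 2.07% (0.568 to 5.22%) of the 193 also held *Crx*. Of the 24 cells with *Prdm1*, 22 had *Otx2*.

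In 167 thinned precursors the 3 genes were found in more combinations. Of these, 24 held *Otx2* alone, 27 *Otx2* with *Crx*, 8 *Otx2* with *Prdm1*, 15 all 3 and 80 none. *Crx* was found in 56.8% (44.7 to 68.2%) of the 74 with *Otx2* and in 9.68% (4.52 to 17.6%) of the 93 without. Of 51 precursors with *Crx*, 82.4% (69.1 to 91.6%) had *Otx2*. *Prdm1* was found in 39.2% (25.8 to 53.9%) of the precursors with *Crx* and 10.3% (5.46 to 17.4%) of those without. Among precursors with *Otx2*, the share with *Prdm1* was 35.7% (21.6 to 52.0%) with *Crx* and 25.0% (11.5 to 43.4%) without, intervals that overlap.

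In 3006 thinned GFP+ cones, 58.7% held all 3 genes, 31.5% *Otx2* with *Crx*, 5.02% *Otx2* with *Prdm1* and 2.93% *Otx2* alone, and 1 cell held none. Here the shares with and without another of the genes overlapped within counting error. *Crx* was found in 91.9% (90.9 to 92.9%) of cones with *Otx2* and 92.6% (82.1 to 97.9%) of the 54 without, and *Prdm1* in 65.0% (63.2 to 66.8%) of cones with *Crx* and 63.4% (57.0 to 69.4%) of those without. In 63 thinned GFP- cones, 52.4% (39.4 to 65.1%) held all 3 and 33.3% (22.0 to 46.3%) *Otx2* with *Crx*. The share with all 3 moved with depth, being 36.1% of GFP+ cones at 2000 UMIs and 79.3% at 5000.

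**Figure D2:**
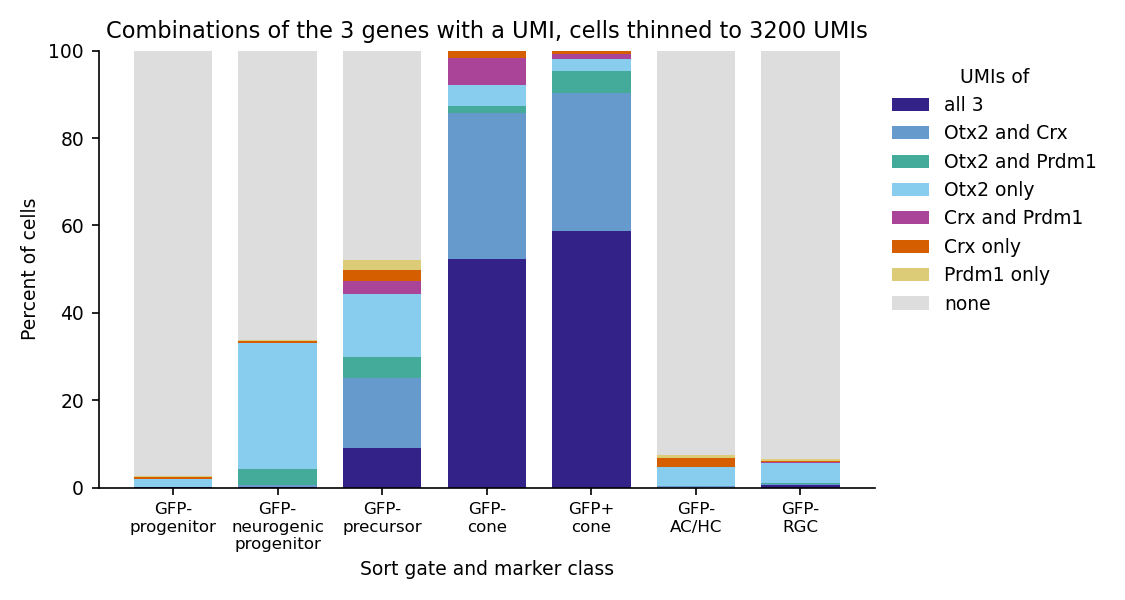
Percent of cells, thinned to 3200 UMIs, with each combination of Otx2, Crx and Prdm1 UMIs, by marker class and gate. Among neurogenic progenitors 385 of 582 held none and 168 Otx2 alone, and cones of both gates mostly all 3 genes or Otx2 with Crx.

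The spread between cells also differed by class. In thinned GFP+ cones the mean number of UMIs was 4.87 for *Otx2*, 2.72 for *Crx* and 1.14 for *Prdm1*, with variance over mean of 1.36, 1.22 and 1.18, near the 1 of counting error. In neurogenic progenitors the mean for *Otx2* was 0.923 and the variance over mean 3.52, with 6.01% of cells at 5 or more UMIs and a highest count of 11. In precursors it was 3.73. *Otx2* in neurogenic progenitors was therefore held by a part of the class at levels reaching into the range of cones.

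Detection was next set against the number of cone marker UMIs in thinned cells without RGC or AC/HC lists on. Among GFP+ cells, *Otx2* was found in 58.6% (38.9 to 76.5%) of 29 cells with 0 cone marker UMIs, 85.9% (75.6 to 93.0%) of 71 cells with 1 to 2 and 97.3% (93.7 to 99.1%) of 183 cells with 3 to 5. For *Crx* these shares were 34.5% (17.9 to 54.3%), 85.9% (75.6 to 93.0%) and 92.3% (87.5 to 95.8%), and for *Prdm1* 10.3% (2.19 to 27.4%), 60.6% (48.3 to 71.97%) and 63.9% (56.5 to 70.9%). Beyond 3 to 5 UMIs the shares changed little. At over 20 cone marker UMIs, in 479 cells, the shares were 98.5%, 90.2% and 63.9%. The mean number of *Otx2* UMIs per cell was 4.50 (4.20 to 4.82) at 3 to 5 marker UMIs, 4.999 (4.89 to 5.11) at 11 to 20 and 4.81 (4.61 to 5.01) at over 20, the first pair of intervals being apart. For *Crx* it was 2.82 (2.58 to 3.07) at 3 to 5 and 2.71 (2.56 to 2.86) at over 20, and for *Prdm1* 1.21 (1.05 to 1.38) and 1.09 (1.002 to 1.19), with intervals that overlap. GFP- cells with 1 to 2 cone marker UMIs, 59 in number, held *Otx2* in 54.2% (40.8 to 67.3%), *Crx* in 45.8% (32.7 to 59.2%) and *Prdm1* in 20.3% (10.98 to 32.8%). All of these lay below the GFP+ cells with the same number of marker UMIs, the intervals being apart.

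**Figure D3:**
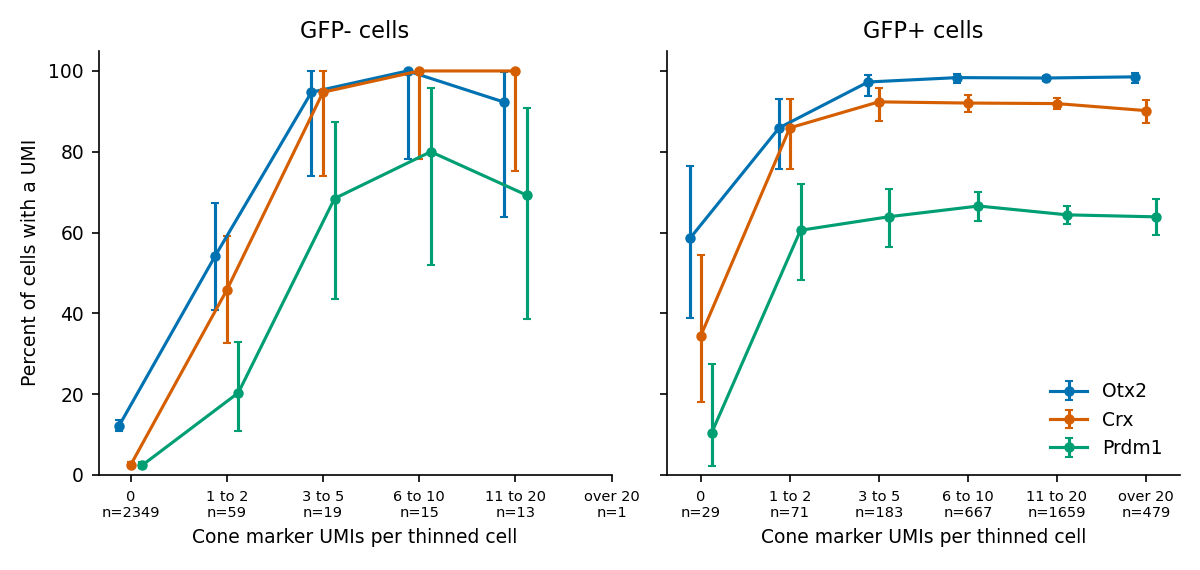
Percent of thinned cells with a UMI of Otx2, Crx or Prdm1 against the number of UMIs of the 6 cone markers, for GFP- and GFP+ cells, with 95% Clopper-Pearson intervals and the number of cells in each bin (bins under 10 cells not drawn). In GFP+ cells the share with Prdm1 was 63.9% both at 3 to 5 and at over 20 marker UMIs.

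Neurogenic progenitors were split by whether G2M genes (such as *Mki67*, *Top2a* and *Cenpf*) or S phase genes (such as *Mcm3* and *Pcna*) had more UMIs, equal numbers going with S phase, a split chosen after the data were seen. *Otx2* was at 410 CPM (389 to 432) in the 377 G2M-rich cells and 62.1 CPM (51.1 to 74.7) in the 210 others, a ratio of 6.60 (5.44 to 8.08). *Prdm1* was at 20.2 CPM (15.7 to 25.6) and 1.68 CPM (0.346 to 4.90), on 69 and 3 UMIs. A UMI of *Otx2* was found in 44.9% (39.8 to 50.1%) of thinned G2M-rich and 12.0% (7.93 to 17.2%) of thinned S-rich cells, whose median depths were 9209 and 8400.5 UMIs. *Crx* was at 3.81 CPM and 1.12 CPM, on 13 and 2 UMIs. *Olig2*, a basic helix-loop-helix factor of progenitors near their last division, and *Onecut1*, a factor shared by cone and horizontal cell precursors, were also higher in the G2M-rich cells, at 6.19-fold and 8.25-fold.

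*Otx2* was found more often in cells with *Olig2*. Of 94 thinned G2M-rich cells with an *Olig2* UMI, 86.2% (77.5 to 92.4%) held *Otx2* and 12.8% (6.77 to 21.2%) *Prdm1*, against 31.1% (25.7 to 36.9%) and 3.93% (1.98 to 6.92%) of the 280 without. In S-rich cells without *Olig2*, 9.45% (5.79 to 14.4%) of 201 held *Otx2*, and of the 7 S-rich cells with *Olig2*, 6 held it (85.7%, 42.1 to 99.6%). As *Olig2* is in the neurogenic list, it helped to choose the class but not the split of it by phase.

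**Figure D4:**
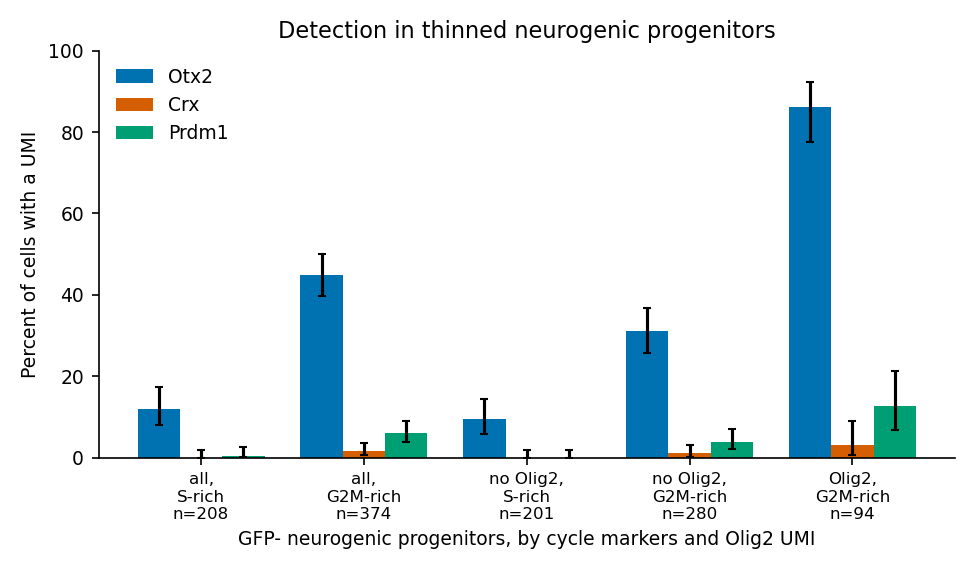
Percent of thinned GFP- neurogenic progenitors with a UMI of Otx2, Crx or Prdm1, split by whether G2M or S phase markers had more UMIs and by an Olig2 UMI, with 95% Clopper-Pearson intervals. Otx2 was found in 12.0% of S-rich and 44.9% of G2M-rich cells, and in 86.2% of G2M-rich cells with Olig2.

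The company that *Otx2* keeps was described by dividing neurogenic progenitors into 193 with and 389 without an *Otx2* UMI after thinning, with levels taken from all UMIs. Phase was not held fixed, as 168 of the 193 were among the 374 thinned G2M-rich cells and 25 among the 208 S-rich cells. *Prdm1*, *Onecut1* and *Olig2* were 12.0-fold, 8.25-fold and 6.19-fold higher in G2M-rich cells, *Neurog2* 1.87-fold and *Neurod1* 1.36-fold. The part of phase in the ratios below was not tested. In this comparison 4.12% of 7962 genes were at least 2-fold higher with *Otx2* and 4.33% at least 2-fold lower. Of 12 upstream factors, 5 were higher, 1 was lower and 6 were neither, with a median log2 ratio of 0.40 against 0.07 over all genes. *Olig2* was at 242 CPM with and 18.5 CPM without *Otx2*, a ratio of 13.1 (10.1 to 17.3). *Neurog2*, the proneural factor, was at 2145 CPM and 690 CPM, a ratio of 3.11 (2.95 to 3.28). *Atoh7*, a factor for RGC, and *Foxn4*, a factor for amacrine and horizontal cells, were 2.22-fold and 2.17-fold higher. *Hes1*, the Notch effector that keeps progenitors undifferentiated, was the one lower, at 60.8 CPM against 313 CPM, a ratio of 0.194 (0.157 to 0.238). *Hes5*, another Notch effector, was at 0.545-fold, which did not reach 2-fold. *Neurog2*, *Olig2* and *Atoh7* are in the neurogenic list, which was on in cells with and without *Otx2* alike.

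Of 18 photoreceptor factors, 6 reached 10 CPM in these cells, and 4 were higher and 1 lower. *Neurod1*, a factor for photoreceptor survival and differentiation, was at 545 CPM with and 178 CPM without *Otx2*, a ratio of 3.07 (2.77 to 3.40). *Onecut1* was at 119 CPM and 17.9 CPM, a ratio of 6.64 (4.98 to 8.96), and *Onecut2* at 2.91-fold. *Neurod4* had 34 and 3 UMIs, a ratio of 23.7 (7.45 to 121), and reached 10 CPM with *Otx2* alone. *Casz1*, which acts in progenitors and again in photoreceptors, was lower, at 17.9 CPM and 57.0 CPM. *Thrb* and *Rxrg*, the nuclear receptors of cones, did not reach 10 CPM. *Prdm1* was at 36.9 CPM with *Otx2* and 2.56 CPM without, a ratio of 14.4 (7.12 to 33.0), while *Crx* had 10 and 5 UMIs and did not reach the minimum. No photoreceptor target reached 10 CPM here.

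**Figure D5:**
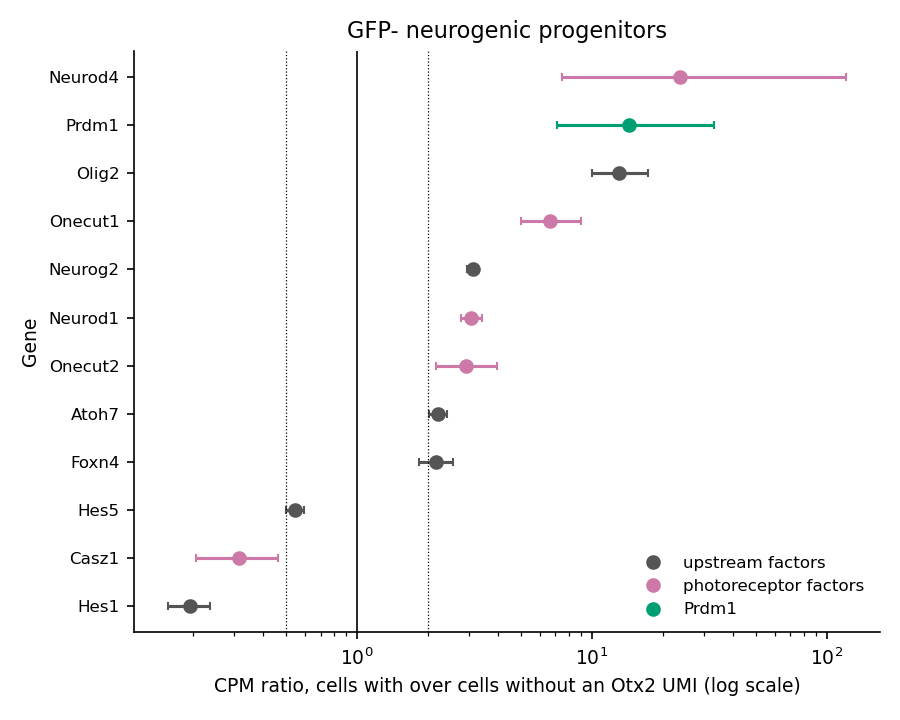
CPM ratio (log scale) of the upstream and photoreceptor factors named in the text and of Prdm1 between GFP- neurogenic progenitors with and without an Otx2 UMI, with exact 95% intervals; the solid line marks a ratio of 1 and the dotted lines 2-fold. Neurod4, Prdm1, Olig2 and Onecut1 were over 6-fold higher with Otx2, and Hes1 was the lowest of those drawn at 0.194.

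The same split of 74 precursors with and 93 without *Otx2* gave a background of 8.58% of 8564 genes at least 2-fold higher and 9.32% lower. *Neurod4* was at 448 CPM against 97.4 CPM, a ratio of 4.60 (3.50 to 6.13), *Neurod1* at 3.14-fold (2.67 to 3.71) and *Onecut1* at 6.25-fold (3.66 to 11.3). Of 9 photoreceptor factors tested 6 were higher and none lower. Among the 6, *Thrb*, *Lhx4* and *Mef2d* reached 10 CPM with *Otx2* alone, on 11, 6 and 5 UMIs, so that each had to be higher there. The intervals for *Lhx4* (0.750 to 42.5) and *Mef2d* (0.453 to 15.0) took in no difference. Of 12 upstream factors 2 were higher, among them *Olig2*, and 5 were lower, among them *Hes1* and *Sox2* at 0.285-fold and 0.369-fold. *Ptf1a*, the factor that sets amacrine and horizontal fates, had 2 UMIs with and 16 without *Otx2*. Precursors without *Otx2* thus held more transcripts of progenitors and of another lineage.

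Dividing precursors by *Crx*, into 51 with and 116 without gave a second split of the same class. The background was 9.49% of 8374 genes at least 2-fold higher and 10.8% lower. *Neurod4* was at 606 CPM with and 90.3 CPM without *Crx*, a ratio of 6.71 (5.15 to 8.84). *Hes1* was at 8.42 CPM against 144 CPM, a ratio of 0.0586 (0.0119 to 0.175), on 3 UMIs. *Neurog2* was at 334 CPM with and 734 CPM without *Crx*, a ratio of 0.455 (0.371 to 0.554). Beside *Otx2* in the same class, *Neurog2* was at 809 CPM with and 477 CPM without, a ratio of 1.70 (1.46 to 1.97). *Neurog2* thus stood in opposite directions beside the 2 genes, and the difference between these 2 ratios, which share cells, was not tested. Of the photoreceptor targets, *Rbp3* and *Gnb3* reached 10 CPM only in the cells with *Otx2* or with *Crx*, so that each had to be higher there. Both did so on 9 or fewer UMIs, with intervals from 0.878 for *Gnb3* beside *Otx2* and from 0.967 for *Rbp3* beside *Crx*. *Gnb3* is also in the cone list, which had to be off in precursors.

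GFP+ cones were split by *Prdm1*. With 1950 cones holding and 1056 lacking a *Prdm1* UMI, 0.046% of 8690 genes were at least 2-fold higher and 0.0115% lower, and the higher genes included *Prdm1* itself and its relative *Prdm15* (17.2 CPM and 8.46 CPM). *Otx2* was at 1537 CPM with and 1469 CPM without *Prdm1*, and *Crx* at 863 CPM and 845 CPM. None of 13 photoreceptor factors, 12 photoreceptor targets and 6 bipolar genes tested reached 2-fold in either direction. Thinned *Prdm1* counts in these cones had a mean of 1.14 and a variance 1.18 times that mean, so whether a cone showed a UMI depended heavily on counting. The split could therefore hardly show genes that go with *Prdm1*, and whether cones differ in *Prdm1* was not tested. In a split of the same cones by *Crx*, whose thinned counts were as near to counting error, *Otx2* was at 1.02-fold (0.965 to 1.07) and *Prdm1* at 0.960-fold (0.865 to 1.07) with *Crx*, and other genes of that split are not described here. In GFP+ cones with the neurogenic list on, 578 in number, *Atoh7*, which is in that list, was 5.53-fold higher than in the 2985 others. Of all kept GFP+ cells 24.1% stood at 2 or 3 UMIs of the list. Between these cones *Otx2*, *Crx* and *Prdm1* were at 0.988-fold, 1.08-fold and 1.08-fold. Over the 12 photoreceptor targets tested, the median log2 ratio was -0.58 against -0.07 over all genes. Among these targets *Gngt2*, *Gnb3*, *Gnat2* and *Pdc* are in the list that set the cone class. The share of all genes past 2-fold was not taken for this split, so the number of targets past it is not given.

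Genes that the 3 factors act beside were also set between the gates. The photoreceptor targets that reached 10 CPM, 12 of 25 gene rows in the list, did so in the GFP+ library alone, so that each had to be higher there and their number is no result. Among them *Rbp3* was at 157 CPM and 0.997 CPM and *Aipl1* at 32.8 CPM and 0.133 CPM. Of the photoreceptor factors over 10 CPM in GFP- cells as well, *Neurod1* was 11.9-fold and *Neurod4* 19.9-fold higher in GFP+. *Casz1* at 2.42-fold and *Onecut1* at 2.39-fold were also higher, while *Onecut2* at 1.81-fold and *Rorb* at 0.859-fold did not reach 2-fold. Of 12 upstream factors 10 were over 2-fold lower in GFP+, against 10.3% of all genes tested, and several of them are in the lists that set the classes. The other two were *Rax*, the retinal homeobox factor, at 1.57-fold and *Olig2* at 0.536-fold. Bipolar genes, some of which PRDM1 is known to hold down, included *Irx6* at 158 CPM and 2.96 CPM and *Pcp2* at 89.3 CPM and 0.631 CPM, genes that likewise reached 10 CPM in the GFP+ library alone. *Vsx1*, *Grm6*, *Trpm1* and *Sebox* were under 1 CPM in GFP+ cones. *Nrl*, the factor that sets the rod fate, stood at 30.8 CPM against 0.631 CPM between the gates.

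Genes most like each of the 3 were found over the 7 class and gate groups with at least 50 cells, by Pearson's r of log2(CPM + 1) among 4540 genes. For *Otx2* these were *Neurod1* (r = 0.98), *Qsox1* (r = 0.98) and *Fam204a* (r = 0.97). For *Crx* they were *Mrpl38*, *Fam53b* and *Cog7* (r = 0.99 each), and for *Prdm1* *Shisa2* (r = 0.99), *Tox3* (r = 0.99) and *Qsox1* (r = 0.98). Pearson's r takes no account of the size of a change. *Mrpl38* ran only from 65.6 to 106 CPM over the 7 groups and *Fam204a* from 69.3 to 138 CPM, while *Crx* ran from 1.97 to 847 CPM. The groups come from 2 libraries of unlike depth and cannot stand as independent samples. *Neurod1* ran beside *Otx2* at each step, at 5.90, 298, 580, 1250 and 1315 CPM from progenitors to GFP+ cones. Among the 3 genes themselves r was 0.96 between *Otx2* and *Prdm1*, 0.95 between *Crx* and *Prdm1* and 0.85 between *Otx2* and *Crx*. Ranked by r among 4539 genes, *Prdm1* was at place 5 for *Otx2* and 47 for *Crx*. *Crx* was at place 88 for *Otx2*, and *Otx2* at place 431 for *Crx*.

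GFP- cells that held the genes were few but were placed unevenly. Of 113 thinned GFP- cells with both *Otx2* and *Crx* (3.36%), 54 were in the cone and 42 in the precursor class and 4 were neurogenic progenitors. Of 301 with *Otx2* and no *Crx* (8.96%), 189 were neurogenic progenitors and 4 in the cone class. In the GFP+ library, 156 thinned cells (5.02%) had *Otx2* but no UMI of *Gngt2*, the cone transducin subunit. Of these, 128 were in the cone class. *Crx* was held by 88.5% of the 156 and *Prdm1* by 62.2%, against 91.7% and 64.7% of the 2867 cells with both *Otx2* and *Gngt2*. Of the unassigned GFP+ cells, 45 had both the cone and cycle lists on, with *Otx2* at 1231 CPM, *Crx* at 637 CPM and *Prdm1* at 425 CPM. Whether these were doublets was not tested, as the doublet caller marked 2 kept GFP+ cells, both in the cone class.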

How the data were processed

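Droplet libraries of GFP+ and GFP- cells, 1 each, were read. The authors made the deposited UMI counts with Cell Ranger 2.1.1 on mm10 (GRCm38), as the submitters' processing notes give, and the counts are whole numbers per gene and cell that were not normalized. The cell limits follow the study's methods, with its mitochondrial limit read as a fraction of 0.25. UMIs were summed over cells per 1000000 UMIs, with exact Poisson intervals. Shares have exact Clopper-Pearson intervals and ratios exact conditional intervals, all at 95%. Genes under 10 CPM in both groups were left out of counts of genes past 2-fold, and log2 medians had 0.5 added to both sums. No p-value was taken from cells. The precision is that of counting alone. Scrublet (scanpy 1.11.5, expected rate 0.03) called 3 GFP+ barcodes (0.0805%) and 55 GFP- barcodes (1.24%) doublets. The GFP+ share is too low to show that the caller worked there. Of those called, 2 GFP+ cells and 0 GFP- cells were among the cells kept, and both were left in. Promoter windows came from RefSeq and gene positions from GENCODE. Python 3.11.15, numpy 2.4.6, pandas 2.3.3, scipy 1.17.1 and, for TMM factors only, edgeR 4.0.16 were used, and the intervals, fold calls and thinning were tested on simulated data.

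The 3 genes, the lists and the classes were chosen with earlier results of these data known. Named are the 3 genes, genes of the 5 lists of upstream factors, photoreceptor factors, photoreceptor targets, bipolar genes and relatives, the 3 most like each, and class markers. The splits by phase, by *Olig2*, by the neurogenic list and by a UMI of *Otx2*, *Crx* or *Prdm1*, and a second thinning draw, were chosen after seeing the data. The alternatives were other cell filters, doublets left out, other scalings, marker cutoffs, cone lists, thinning depths and minimum levels. Some genes of the lists are counted but not reported here.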

Additional observations from a re-analysis of the deposited data

Results flagged for a closer look

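The GFP- cells left out by the upper limit on genes, 1055 in number with a median of 14919 UMIs, were in no comparison and held all 3 genes above the 0.180 CPM that 3 counts allow. *Otx2* was at 31.2 CPM (28.6 to 34.0), *Crx* at 1.44 CPM (0.922 to 2.14) and *Prdm1* at 2.22 CPM (1.56 to 3.06) in them. By the same markers 418 were RGC, 368 progenitors, 86 neurogenic progenitors and 1 AC/HC, none were precursors or cones, and 182 were unassigned. All 3 levels lay below those of the kept GFP- cells.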

How the results depend on the processing

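Over 43 results, 172 of 244 alternative values stayed within the bounds of the reported one, 71 moved and 1 turned its direction. No value moved in another thinning draw, which was chosen after seeing the data. Leaving out called doublets took away 2 GFP+ cones and 0 GFP- cells, so that it could hardly move a value. No paired analysis was possible because each gate gave 1 library.

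The ratios of GFP+ to GFP- for *Otx2*, *Crx* and *Prdm1* were 19.9, 58.9 and 51.3 both with no filter on cells and with no upper gene limit. They were 12.2, 31.9 and 30.2 under TMM scaling, 12.9, 27.7 and 28.0 as means of per-cell CPM, and 7.24, 18.9 and 17.9 as mean UMIs per cell. With classes set on thinned cells, *Otx2* in precursors over neurogenic progenitors turned to 0.706, and the cause was not tested. There *Otx2* was at 466 CPM in neurogenic progenitors and 329 CPM in precursors, *Crx* at 70.3 CPM in precursors, and *Prdm1* at 20.4 CPM and 34.0 CPM. The other ratios were then 19.1 for *Crx* and 1.67 for *Prdm1* into precursors, 4.20, 11.9 and 7.76 for *Otx2*, *Crx* and *Prdm1* into cones, and 20.9 for *Prdm1* into neurogenic progenitors.

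With lists on at 2 UMIs, *Otx2* was at 241 CPM in neurogenic progenitors, where 27.0% of cells held it, and at 608 CPM in precursors, and *Crx* was at 8.93 CPM in the former. The ratios were then 7.53 for *Crx* and 18.4 for *Prdm1* into neurogenic progenitors, 2.53 for *Otx2* and 23.4 for *Crx* into precursors, and 2.04 for *Otx2* into cones. With lists on at 5 UMIs, *Otx2* was at 360 CPM in neurogenic progenitors (40.8% of cells) and 433 CPM in precursors, *Crx* at 129 CPM in precursors and 880 CPM in GFP- cones, and *Prdm1* at 45.8 CPM in precursors. The ratios were 3.27 for *Crx* and 17.4 for *Prdm1* into neurogenic progenitors, 1.20, 36.7 and 2.94 for *Otx2*, *Crx* and *Prdm1* into precursors, and 3.05, 6.82 and 5.80 into cones. With a cone list of *Thrb* and *Rxrg* alone, 97.7% of GFP+ cells with 1 to 2 marker UMIs held *Otx2*.

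Depth limited the shares. Cones with all 3 genes made up 68.2% with no thinning, 36.1% at 2000 UMIs and 79.3% at 5000. Neurogenic progenitors with *Otx2* made up 47.0%, 28.6% and 39.1%. Among these, *Prdm1* was in 18.5% with no thinning and 7.14% at 2000 UMIs, and *Crx* in 0.446% at 5000. *Crx* was in 43.4% of precursors with *Otx2* at 2000 UMIs. At a minimum of 50 CPM, 733 genes were 2-fold higher and 348 lower in GFP+, and 87, 152 and 361 were higher at the steps into neurogenic progenitors, precursors and cones. With no minimum these were 4850, 4280, 1599, 2596 and 2568. Centring on the median ratio gave 1217 higher in GFP+.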
